A study of Homo sapiens with 18 samples.

Results

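The 51909 merged ATAC-seq sites of LNCaP cells treated with trichostatin A (TSA) or vehicle were examined for sites that gained and sites that lost accessibility. All 51909 sites of the deposited site table were used, and each was placed by its overlap, of at least 1 base, with the peak list of the TSA libraries and that of the vehicle libraries. LNCaP is a human prostate adenocarcinoma line of luminal character. The cells had been kept without phenol red in charcoal-stripped serum, which is low in steroid hormones, before both treatments. TSA libraries came from 3 cultures given 100 ng/ml TSA for 24 h, and vehicle libraries from 3 cultures given DMSO for 24 h. The 6 ATAC-seq libraries are part of a series of 18 that also holds STARR-seq and mRNA-seq. TSA was used to change the chromatin and ask whether active enhancers in closed chromatin can then act on nearby genes.

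TSA blocks class I and class II histone deacetylases, so acetyl groups accumulate on histone tails and chromatin becomes easier to open. In ATAC-seq the Tn5 transposase inserts sequencing adaptors into DNA that is not covered by nucleosomes, so reads pile up at active promoters, enhancers and insulators. Fseq turns the density of insertions into a score, and regions with a high score are listed as peaks. LINE-1 retrotransposons carry a promoter of their own, and in most adult cells it is kept silent by DNA methylation and by histone marks.

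The libraries of each condition had been pooled before peaks were called, so each site had 1 score per condition at most. The spread between cultures and the depth of each library were unknown from these values, and no test of a difference between conditions was made. Some of the compared shares are given with exact 95% binomial intervals, and these cover counting error only. The scores were 0.0377 to 11.8 in the TSA list of 40995 peaks and 0.039 to 11.9 in the vehicle list of 38813 peaks. The label was checked by promoter sites of marker genes. KRT8, KRT18, FOLH1, FOXA1, HOXB13, TMPRSS2, CDH1 and EPCAM, 8 of the 9 luminal genes reported here, had a promoter site in both lists, and KLK3 had none. Of the 11 markers of basal, blood, endothelial and fibroblast cells, only COL1A1 had a promoter site, also in both lists, and PECAM1 could not be matched. The average log2 CPM of the mRNA-seq ran from 6 at TMPRSS2 to 11.2 at FOLH1 in the 9 luminal genes. By that measure basal KRT5 (6.23) and fibroblast COL1A1 (6.77) lay within the luminal range. VWF had 2.42 and COL3A1 0.232, and the other matched markers had negative averages.

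The sequence of 4 high-scoring sites is shown first because base composition sets the classes apart. The stretches below were read from GRCh37 on the plus strand. Letters that match a searched motif are in capitals, and the sites are among the highest of their class by score with a match in the 200 bases around the centre. The first site had a peak under TSA only, and the other 3 in vehicle only.
TSA only, chr3:161572272-161572471, nearest gene OTOL1, AP-1 match: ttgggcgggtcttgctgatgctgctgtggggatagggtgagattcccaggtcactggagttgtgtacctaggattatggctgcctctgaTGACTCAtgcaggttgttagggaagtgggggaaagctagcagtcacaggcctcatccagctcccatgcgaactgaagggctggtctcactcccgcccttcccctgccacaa
Vehicle only, chr3:27020386-27020585, nearest gene NEK10, NFY match: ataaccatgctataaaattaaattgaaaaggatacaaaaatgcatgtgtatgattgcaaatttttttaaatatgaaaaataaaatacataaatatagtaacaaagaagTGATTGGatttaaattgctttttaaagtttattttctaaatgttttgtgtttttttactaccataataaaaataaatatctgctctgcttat
Vehicle only, chr14:82918575-82918774, nearest gene SEL1L, homeobox match: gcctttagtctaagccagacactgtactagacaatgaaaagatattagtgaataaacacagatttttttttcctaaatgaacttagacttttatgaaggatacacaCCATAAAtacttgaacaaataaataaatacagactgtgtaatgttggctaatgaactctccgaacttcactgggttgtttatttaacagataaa
Vehicle only, chr4:16552278-16552477, nearest gene TAPT1, E-box: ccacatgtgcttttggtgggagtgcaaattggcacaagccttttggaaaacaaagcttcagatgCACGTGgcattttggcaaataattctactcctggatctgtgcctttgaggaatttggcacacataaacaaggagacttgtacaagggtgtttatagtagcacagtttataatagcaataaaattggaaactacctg

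A peak was present in both lists at 27288 sites, 52.6% of all. Another 13434 sites had a peak under TSA only, 25.9% of all sites, and 11187 had a peak in vehicle only, 21.6% of all sites. The TSA list was the longer one. With it cut to the length of the vehicle list, 11821 sites were TSA-only and 11740 vehicle-only, so the difference between these counts depended on list length. The union of both lists gave exactly the 51909 deposited sites. Sites of a single list were narrow and weak. Their median width was 762 bases under TSA and 690 bases in vehicle, against 1424 bases for shared sites. Their median score was 0.0451 under TSA and 0.0465 in vehicle, just above the lowest score of each list. Shared sites had a median of 0.0737 under TSA and 0.0693 in vehicle. The average level over all 6 libraries, which the authors give as log2 CPM, had a median of 2.78 at TSA-only sites, 2.77 at vehicle-only sites and 4.40 at shared sites.

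Whether a site appeared in both lists followed its score. Among the 10% of TSA sites with the lowest scores, 27.9% were also in the vehicle list, and among the 10% with the highest scores 98.4% were. The same shares for vehicle sites were 37.3% and 99.3%. Many single-list sites had a score close to the lowest listed one. Of the TSA-only sites, 8529 (63.5%) had a score under 1.25 times the lowest vehicle score, and of the vehicle-only sites 5908 (52.8%) had one under 1.25 times the lowest TSA score. For this reason sites are also described by the size of the difference.

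At shared sites the TSA score was higher than the vehicle score by a median of 0.10 on the log2 scale, or 1.07-fold. Because the scaling of the scores between conditions is unknown, ratios are given relative to that median. Of the shared sites, 82.6% lay within 1.5-fold, and the log2 ratio ranged from -2.68 to 2.78. The score was at least 2-fold higher under TSA at 475 shared sites (1.74%) and at least 2-fold lower at 776 (2.84%). Without centring on the median these counts were 658 and 574, so which direction held more sites depended on the scaling. Single-list sites can be added by setting their score against the lowest score of the other list, which gives a lower limit of the ratio. By this rule 979 of all sites (1.89%) gained at least 2-fold and 1711 (3.30%) lost at least 2-fold, or 1318 and 1265 without centring. These 979 and 1711 sites are called gained and lost sites below.

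**Figure D1:**
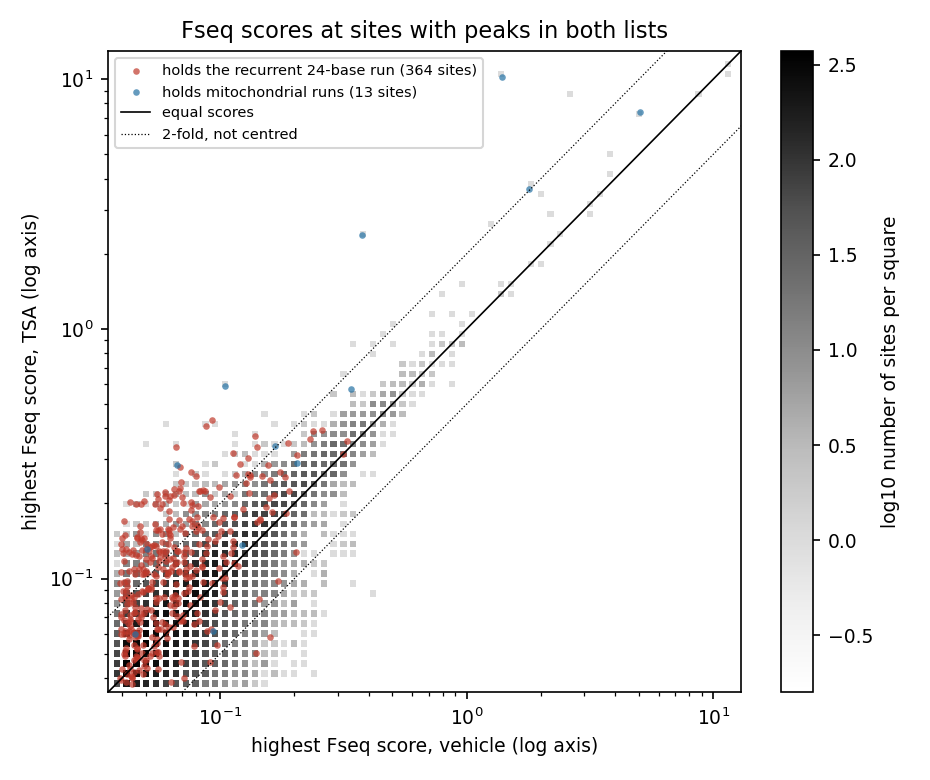
Highest Fseq score at each of 27288 shared sites in vehicle (x axis) and under TSA (y axis), both on log axes, with the number of sites per square in grey. The 364 sites that hold the most frequent 24-base run of the gained sites (red) lie mostly above the line of equal scores, and of the 13 sites with mitochondrial runs (blue) 12 had a centred log2 ratio above 0.

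A portion of the gained sites held the same sequence. All runs of 24 bases were counted in the gained sites on both strands, and the most frequent one was found in 275 of the 979 gained sites, 28.1% (interval 25.3 to 31.0%). It was found in 6 of the 1711 lost sites, 0.351% (0.129 to 0.762%). Its letters are not given here. It belongs to the 5′ region of LINE-1, a retrotransposon that copies itself through RNA and whose internal promoter lies in that region. The name rests on general knowledge of the element, since no repeat annotation was used here.

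The run was present in 758 TSA-only sites, 39 vehicle-only sites and 364 shared sites. That is 5.64% of TSA-only sites (5.26 to 6.05%), 0.349% of vehicle-only sites (0.248 to 0.476%) and 1.33% of shared sites (1.2 to 1.48%). GRCh37 holds 3537 exact copies on chromosomes 1 to 22, X and Y. Of these, 21.7% lay in a TSA-only site, 1.16% in a vehicle-only site, 10.3% in a shared site, and 66.8% in no site. At the 364 shared sites the median score was 0.109 under TSA and 0.0599 in vehicle. The centred log2 ratio was above 0 at 294 of them (80.8%), with a median of 0.65, or 1.57-fold, and quartiles of 0.16 and 1.13. It was past 2-fold upward at 116 and downward at 3. The run was picked for its count in the gained sites, which include these 116, and neither these values nor the intervals above allow for that choice.

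The sites with this run were spread over every chromosome, from 4 on chromosomes 19 and 22 to 110 each on chromosomes 4 and X. On each of chromosomes 1 to 22, X and Y the TSA-only sites among them outnumbered the vehicle-only sites. The run was picked in gained sites, some of them TSA-only, so this excess is not independent of the choice. The same holds for the sites with the run named in this paragraph, except the one near GRIA2. They lay far from genes, with 879 intergenic, 277 in introns, 4 in promoters and 1 in an exon, and their median distance from a gene start was 152 kb. The site with the highest TSA score among those shared was intronic and nearest to LPHN3, an adhesion receptor of neurons, with 0.434 under TSA and 0.0927 in vehicle, a 4.38-fold centred rise. The intronic one nearest to RIMS2, a gene of synaptic vesicle release, had 0.407 and 0.0872, a 4.37-fold rise. Near GRIA2, a glutamate receptor gene, the scores were 0.392 and 0.259, a 1.42-fold rise. Of the 5 distal TSA-only sites with the highest scores, those nearest to TRPS1, AGA, C6orf170 and TAC1 held the run, with TSA scores of 0.298, 0.256, 0.231 and 0.216, and the one nearest to SLITRK1, with 0.280, did not.

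Reads that map to more than 1 place had been removed by the authors, so a repeated sequence keeps fewer reads. Among autosomal sites with middle scores, the average level per kb was 1.79 log2 CPM at 217 sites with the run and 3.51 at sites without it. The score here is the higher of the 2 conditions, while the level averages both, and 65.3% of the sites with the run were TSA-only. The same score thus went with a lower average level at these sites. The parts of removed reads and of the uneven classes in this, and in the score ratio, were not tested.

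The third run picked in gained sites belongs to the same end of LINE-1 and was in 676 TSA-only and 30 vehicle-only sites. Each later run was counted only in sites without the runs picked before it, so sites without the first run can still hold LINE-1. The runs of other sequences were less uneven between the classes. The run most frequent among lost sites belongs to Alu, the short retrotransposon that is the most numerous in the human genome. It was present in 9.19% of TSA-only sites (8.70 to 9.69%), 6.71% of vehicle-only sites (6.26 to 7.19%), 5.92% of gained sites (4.53 to 7.59%) and 4.73% of lost sites (3.78 to 5.85%). A run that lies near the other end of LINE-1 was the third picked in the same way among vehicle-only sites. It was in 194 TSA-only sites (1.44%), 179 vehicle-only sites (1.6%) and 88 shared sites (0.322%), so the 5′ run and this run of the same element differed in their share of TSA-only and vehicle-only sites. Of its 18596 genomic copies, 1.06% lay in TSA-only and 0.973% in vehicle-only sites. The fifth run of the gained sites, which is given no name here, was in 108 TSA-only sites and 14 vehicle-only sites.
The fifth run of the gained sites: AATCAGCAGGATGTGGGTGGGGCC

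**Figure D2:**
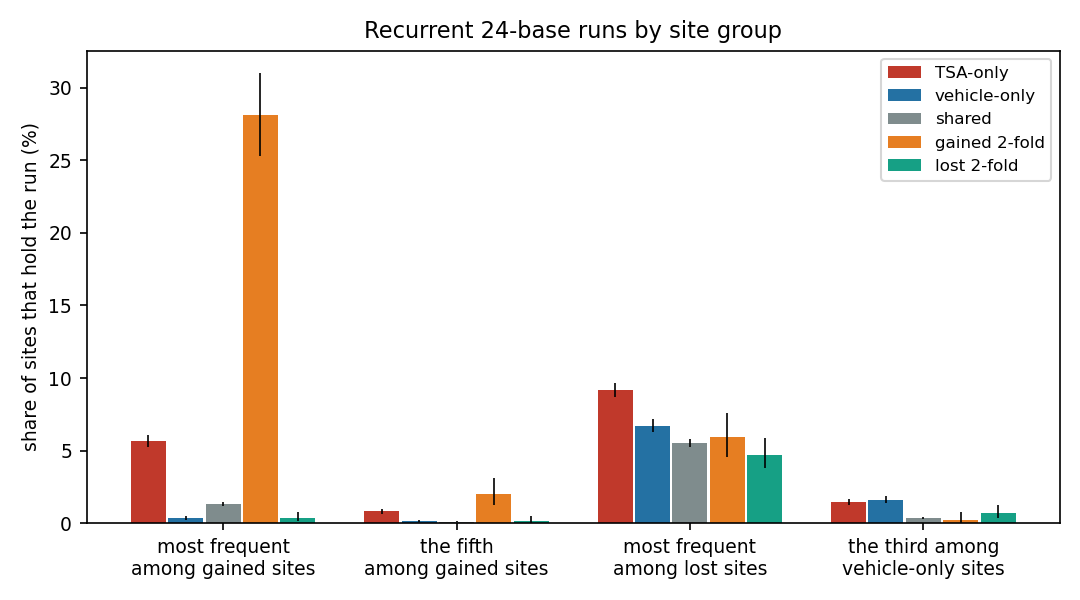
Share of sites (y axis, percent) in 5 site groups that hold each of 4 recurrent runs of 24 bases, with exact 95% binomial intervals as bars. The run most frequent among gained sites stood in 28.1% of gained and 0.351% of lost sites, while the run most frequent among lost sites stood in 5.92% and 4.73%.

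Of the 5 largest rises at shared sites, 3 were at copies of mitochondrial DNA in the nuclear genome. The site with the largest rise, at chr1:564296-570495, had scores of 10.2 under TSA and 1.39 in vehicle, a 6.85-fold centred rise. It shared 4075 of its 24-base runs with the mitochondrial chromosome. The site nearest to EPHA6 on chromosome 3 had 2.39 and 0.375, a 5.96-fold rise, and the site nearest to RAMP3 on chromosome 7 had 0.591 and 0.104, a 5.31-fold rise, and these shared 508 and 66 runs with it. In all 22 sites held 10 or more mitochondrial runs. Of these, 8 were TSA-only, 1 was vehicle-only, and 13 were shared with a median rise of 1.89-fold. The other 2 of the 5 largest rises were intronic and held fewer than 10 such runs. The site nearest to SLCO5A1 had 0.355 and 0.0489, a 6.8-fold rise, and the site nearest to LPHN3, other than the one above, had 0.409 and 0.0597, a 6.42-fold rise. The amount of mitochondrial reads in each library was not given, and its part in these values was not tested. The sites with the highest scores lay next to the centromeres of chromosome 16 (11.8 and 11.9) and chromosome 10 (10.5 and 11.3) and were level between conditions.

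Accessibility at promoters was mostly kept. A site was placed in a promoter when its centre fell in the 1000 bases before a gene start or the 100 bases after it. Of 7442 promoter sites, 87.0% were shared, 10.6% TSA-only and 2.35% vehicle-only. Over all sites these shares were 52.6%, 25.9% and 21.6%, so both single-list classes were less frequent at promoters. Of 24320 intergenic sites, 41.9% were shared, 32.4% TSA-only and 25.8% vehicle-only. Promoters made up 5.87% of TSA-only sites (5.48 to 6.28%) but 1.56% of vehicle-only sites (1.34 to 1.81%), and 23.7% of shared sites. Promoters were 14.3% of all sites, 8.99% of gained sites (88 of 979) and 0.351% of lost sites (6 of 1711). Both groups thus held fewer promoters than all sites did, and lost sites the fewest. The centred log2 ratio of shared sites had a median of 0.10 in promoters, 0.06 in exons, -0.05 in introns and -0.06 in intergenic sequence. The quartiles in promoters were -0.09 and 0.32, so the ranges of promoters and of other places overlapped.

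**Figure D3:**
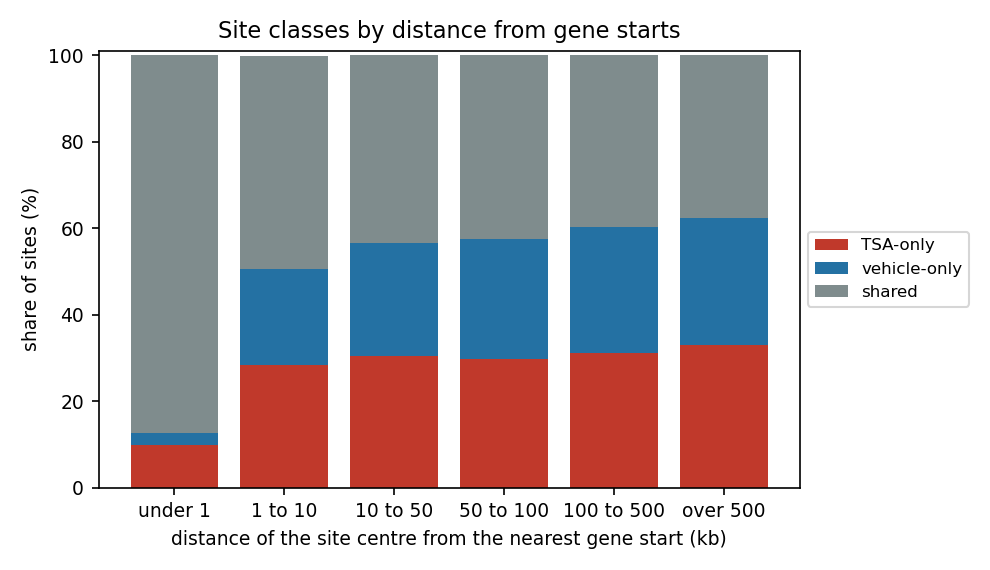
Share of TSA-only, vehicle-only and shared sites (y axis, percent) by distance of the site centre from the nearest gene start (x axis, kb). Within 1 kb of a start 10.0% of sites were TSA-only and 2.61% vehicle-only, and from 100 to 500 kb the shares were 31.1% and 29.1%.

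The median distance to a gene start was 56.5 kb for TSA-only sites, 72.3 kb for vehicle-only sites and 12.8 kb for shared sites. Gained sites lay at a median of 103.9 kb and lost sites at 115.8 kb. Under 1 kb from a start, 133 of 11625 sites gained and 11 lost at least 2-fold. From 10 to 50 kb, 170 of 11748 sites gained and 377 lost. Sites within 1 kb of a start made up 22.4% of all sites, 13.6% of gained sites and 0.643% of lost sites.

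The 5 promoter sites with the highest TSA-only scores were at JAKMIP2, PPARGC1A, LINGO2, MAGI2 and MARCH1. JAKMIP2 encodes a protein that binds Janus kinases and microtubules, and its site had a TSA score of 0.241, at least 5.78-fold over the lowest vehicle score after centring. PPARGC1A, a coactivator that drives the formation of mitochondria, had 0.158, at least 3.79-fold. LINGO2, a leucine-rich repeat protein of neurons, had 0.157, and MAGI2, a scaffold protein of cell junctions, had 0.149. MARCH1, a membrane ubiquitin ligase, had 0.148. These sites were well covered, with averages of 4.29 to 5.78 log2 CPM.
The highest vehicle-only promoter sites were at BMX, a TEC family kinase (0.0857), at LGALS8, a galectin (0.0852), at ADAMTS18, a metalloprotease (0.0747), at PCDHGA1, a protocadherin (0.0732), and at FOXB2, a forkhead factor (0.0681). All 5 lay below the lowest of the 5 TSA-only values, in a class of 175 promoter sites against 789.

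Genes were then followed by any site that overlapped the same promoter window. Of 20800 genes with a start, 11440 (55.0%) had a shared promoter site, 1111 (5.34%) only TSA-only sites and 235 (1.13%) only vehicle-only sites. Genes were ranked by the average log2 CPM of the mRNA-seq libraries of TSA and vehicle together and split into 5 equal groups. In the lowest group 9.21% had a shared promoter site, and in the highest 83.8% had one. TSA-only promoter sites were found at 3.58% of genes in the lowest group, 7.38% in the next, 6.39% in the middle one and 4.71% in the highest. Vehicle-only promoter sites stayed between 0.841% and 1.54% in all 5 groups.

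In the gene lists the TSA-only promoter sites are read against the 5.34% over all genes, as counts without a test. Histone genes, which encode the proteins that TSA leaves acetylated, had TSA-only promoter sites at 6 of 15 genes and vehicle-only sites at none. These were HIST1H1C with a score of 0.0392, HIST1H2AC with 0.0453, HIST1H4H with 0.0546, HIST1H2AE with 0.0395, HIST3H2A with 0.0624 and H1F0 with 0.0416. All 6 scores were under 2 times the lowest vehicle score, 0.039, and those of HIST1H1C, HIST1H2AE and H1F0 were close to it. With a score this close to the lowest one, a peak in 1 list only does not show a gain, here and in the lists below. Neuronal genes whose promoters bind REST, the repressor of neuronal genes outside neurons, had TSA-only sites at 5 of 20, among them STMN2 (0.0395), a microtubule regulator, NPAS4 (0.0498), an activity-dependent factor, and CPLX1 (0.0675), which acts in synaptic vesicle release. At the 13 of these genes with a shared promoter site the centred log2 ratio had a median of 0.33, against 0.10 at all shared promoter sites. The median in neuroendocrine genes was 0.30 over 13 genes, and NCAM1, a neural adhesion molecule, had 0.109 under TSA and 0.0450 in vehicle, a log2 ratio of 1.18. Lists of other functions came near these medians, with 0.28 over 3 HOX genes, 0.26 over 15 unfolded protein response genes and 0.22 over 14 housekeeping genes.

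Cell cycle inhibitors had TSA-only sites at CDKN1A, which encodes p21 (0.0491), and at GADD45B, a growth arrest gene (0.0651), and shared sites at the other 13 of 15. DNA replication genes had shared sites at 20 of 20, with a median log2 ratio of 0.11, and cholesterol synthesis genes at 18 of 18, with 0.23. Mitosis genes had TSA-only sites at AURKB (0.0593) and CCNB2 (0.0730) and shared sites at 16 of 20. Androgen-responsive genes had shared sites at 17 of 19 with a median of -0.05, and a TSA-only site at KLK2 (0.0450), a kallikrein protease. Prostate luminal genes had shared sites at 11 of 12 with a median of -0.05 and a TSA-only site at SPDEF (0.0404). Of 12 basal genes 6 had no promoter site. ITGB4 (0.0442) and NGFR (0.0385, below the lowest vehicle score of 0.039) had TSA-only sites, and 4 basal genes had shared sites. The log2 ratio was 1.34 at S100A2 (0.0570 in vehicle and 0.154 under TSA), 0.17 at LAMB3, 0.16 at ITGA6 and -0.28 at EGFR. Antigen presentation genes had TSA-only sites at HLA-C (0.0521), CIITA (0.0703), the coactivator of class II genes, and HLA-DMA (0.0407), of 18. At the 10 with a shared site the median log2 ratio was -0.12, and the lowest value, -0.52, was at the site that TAP1 and PSMB9 share.

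Vehicle-only promoter sites, which 1.13% of all genes had, were found at 6 list genes. They were SIRT6 (0.0461) among histone deacetylases, RPS3 (0.0467) and RPS19 (0.0530) among ribosomal protein genes, HOXB9 (0.0501) and HOXC8 (0.0395) among HOX genes, and OR10A2 (0.0409), an olfactory receptor. TSA-only sites were at 2 of 20 ribosomal protein genes, among them RPL13 (0.0453). Of 16 housekeeping genes 2 had TSA-only sites, among them POLR2A (0.0395), which encodes a subunit of RNA polymerase II. Epidermal differentiation complex genes had TSA-only sites at LCE1E (0.0469), LCE1F (0.0519) and SPRR1A (0.0437) and no promoter site at 13 of 19. The TSA-only site at LCE1F, at chr1:152747294-152747855, overlapped an enhancer without a DNase I site that had a STARR-seq fold enrichment of 4.42, and a shared site 2.49 kb beyond the start had 0.0458 under TSA and 0.0462 in vehicle. A single TSA-only site was found at HDAC9 (0.0509), BOK (0.0427), MT1G (0.0396) and FOSB (0.0429) in the deacetylase, BCL2 family, metallothionein and AP-1 lists. All 4 shared metallothionein promoters had a log2 ratio below 0, with a median of -0.32 and a range from -0.56 at MT1F to -0.09 at MT3. No single-list promoter site was found among the cancer-testis antigen, acetyltransferase and bromodomain, unfolded protein response, or blood and stromal lists.

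Lost sites were poor in G and C. The median GC content was 49.9% at TSA-only sites, 40.6% at vehicle-only sites and 52.3% at shared sites. It was 51.4% at gained sites, with quartiles of 47.1 and 54.9%, and 38.6% at lost sites, with quartiles of 35.5 and 42.3%, so these quartile ranges did not overlap. The difference was present away from promoters, with 49.4% at distal TSA-only and 40.5% at distal vehicle-only sites. The ratio of observed to expected CpG had a median of 0.278 at TSA-only, 0.196 at vehicle-only and 0.380 at shared sites. Among the 10% of shared sites that fell most by score ratio the median GC content was 41.2%, and among the 10% that rose most it was 54.0%. Promoters made up 2.93% of the former and 25.8% of the latter. Amplification and transposition can depend on GC content, and GC bias per library could not be measured, so its part in these values was not tested.

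**Figure D4:**
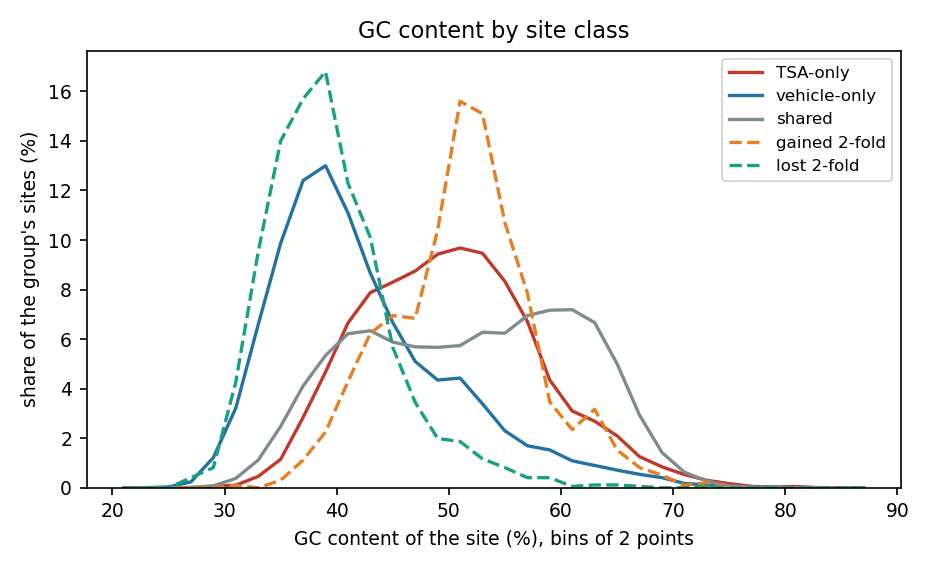
Distribution of GC content (x axis, percent, bins of 2 points) over the sites of each class and over gained and lost sites (y axis, percent of the group's sites). The curve of lost sites has its centre at a median of 38.6% and that of gained sites at 51.4%.

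Motifs were searched as fixed letters on both strands in the 200 bases around each site's centre, beside windows of the same length 10 kb away. The AP-1 motif TGANTCA, bound by FOS and JUN factors, was in 9.79% of TSA-only sites, 6.69% of vehicle-only sites, 5.86% of shared sites and 7.05% of all sites. The windows 10 kb away held it in 5.98%, 6.40% and 5.69% for the 3 classes. Gained sites held it in 9.19% and lost sites in 8.83%. Among shared sites it was in 8.61% of the 10% that fell most and 5.57% of the 10% that rose most. Promoters made up 2.93% of the former and 25.8% of the latter, and at their distal sites alone the AP-1 shares were 8.68% and 7.31%. The forkhead motif TGTTTAC, bound by FOXA1 and related factors, was in 11.6% of vehicle-only sites, 7.38% of TSA-only sites and 5.02% of shared sites, against 2.75 to 2.97% of the windows 10 kb away. The related TGTTTGC was in 9.85% of vehicle-only and 3.8% of TSA-only sites, against 3.36% and 3.40%. AGAACA, an arm of steroid hormone response elements, was in 19% of vehicle-only, 12% of TSA-only and 10.6% of shared sites, against 16.3%, 15.8% and 14.8% in the windows away from them.

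Lost sites held TGTTTAC in 15.8%, TGTTTGC in 13.4% and AGAACA in 20.2%. Gained sites held TGTTTAC in 20.0%, TGTTTGC in 3.78% and AGAACA in 5.82%. Without the sites that hold the run, TGTTTAC was in 12.1% of gained sites and 5.45% of TSA-only sites. Only sites with that exact run were left out, so other LINE-1 sites can remain. The 10% of shared sites that fell most held TGTTTAC in 11.6% and TGTTTGC in 10.0%, and the 10% that rose most held them in 6.30% and 2.93%. At distal sites alone these shares were 11.9% and 10.3% among those that fell, and 7.95% and 3.46% among those that rose.

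The homeobox motif TTTATGG was in 5.38% of vehicle-only and 2.59% of TSA-only sites, against 4.07% and 3.85% in the windows away from them. The motif CCAATCA, bound by NFY, was in 3.8% of TSA-only and 1.93% of vehicle-only sites, against 2.20% and 2.16%. The related CCAATGA was in 1.99% and 1.76%, against 2.35% and 2.20%. The cyclic AMP response element TGACGTCA was in 0.499% of TSA-only, 0.473% of shared and 0.0447% of vehicle-only sites. The CTCF core CCACNAGG, bound by the insulator protein, was in 4.50% of TSA-only, 4.40% of shared and 2.92% of vehicle-only sites. The GC box GGGGCGGGG, bound by SP factors, was in 6.03% of shared, 1.97% of TSA-only and 0.581% of vehicle-only sites. Of the other motifs, CCGGAAGT (ETS), GCGCATGC (NRF1), AAGATGGCG (YY1), GTTGCCATG (RFX) and CACGTG (E-box) were more frequent in TSA-only than vehicle-only sites. ACATTCCA, bound by TEAD factors, AGATAAG, the GATA factor motif, and the TATA box TATAAAAG were less frequent. Away from promoters ETS was in 0.19% of TSA-only (0.122 to 0.282%) and 0.0908% of vehicle-only sites (0.0436 to 0.167%), and these intervals overlapped. The intervals of NRF1 and YY1 also overlapped there. The shares were not adjusted for the GC content or the promoter share of the classes, and the part of either was not tested.

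**Figure D5:**
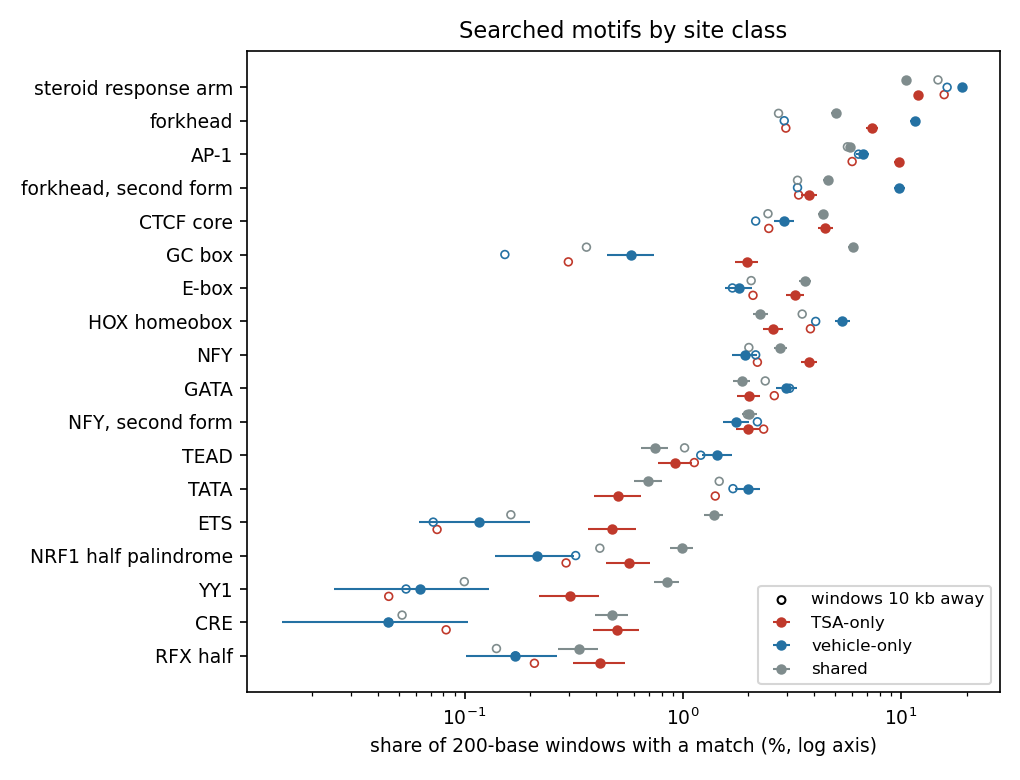
Share of 200-base windows with a match to each searched motif (x axis, percent, log axis) at TSA-only, vehicle-only and shared sites, as filled points with exact 95% binomial intervals, and in windows 10 kb away, as open points. Forkhead matches were in 11.6% of vehicle-only and 7.38% of TSA-only sites, and AP-1 matches in 6.69% and 9.79%.

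STARR-seq measures whether a DNA fragment drives its own transcription from a plasmid, and the deposited enhancers are split by whether they overlap a DNase I site of LNCaP cells. Enhancers without a DNase I site are called closed here, and those with one open. The DNase I sites describe cells without TSA, so these labels partly fix in advance how often each kind meets shared, vehicle-only and TSA-only sites. A closed enhancer overlapped 1039 of 13434 TSA-only sites, 7.73% (7.29 to 8.20%), and 348 of 11187 vehicle-only sites, 3.11% (2.80 to 3.45%). It overlapped 4.42% of shared sites (4.18 to 4.67%). Among gained sites 22.3% overlapped one (19.7 to 25%), and among lost sites 3.57% did (2.74 to 4.56%). Of the sites with the LINE-1 run, 465 (40.1%) overlapped a closed enhancer and 2 an open one. Without the sites that hold this exact run, the share was 13.6% of gained and 5.92% of TSA-only sites, against 3.40% of lost and 3.01% of vehicle-only sites. Other LINE-1 sites can remain in these shares. The sites also differ in width, and per covered Mb closed enhancers were met by 79.8 TSA-only, 38.0 vehicle-only and 25 shared sites.

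Open enhancers met shared sites more often than single-list sites. Of all 11980, 37.1% lay in a shared site, 6.09% in a TSA-only site, 1.76% in a vehicle-only site and 55.1% in none. They overlapped 15.6% of shared sites (15.2 to 16%), 5.26% of TSA-only sites (4.89 to 5.65%) and 1.84% of vehicle-only sites (1.6 to 2.11%). The median fold enrichment of the enhancers did not separate the classes in the same way, with 3.07 for closed enhancers in TSA-only sites, 3.32 in vehicle-only sites and 3.10 in no site. Of all 82547 closed enhancers, 1.27% lay in a TSA-only site, 0.420% in a vehicle-only site, 1.48% in a shared site and 96.8% in none. Near GPI, which encodes an enzyme of glycolysis, an open enhancer of 4.56-fold enrichment overlapped a shared site at chr19:34849829-34850834 with scores of 0.0738 under TSA and 0.0725 in vehicle.

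Most single-list sites did not stand in runs of their own class. Runs of 3 or more neighbouring sites within 100 kb of each other numbered 604 for TSA-only sites, with 2069 of the 13434 sites, and 434 for vehicle-only sites, with 1452 of the 11187. The site after a TSA-only site was TSA-only in 28.0% of cases, and after any site in 25.2%, and for vehicle-only sites these shares were 25.4% and 21.7%. The longest TSA-only run had 9 sites over 177 kb on chromosome 6, at BTN2A3, BTN2A1, HCG11, HMGN4 and ABT1, with 4 sites in promoters and scores of 0.038 to 0.0549. Another 3 runs had 8 sites each. They were at SPATA17 and RRP15 on chromosome 1, with no promoter site, at ZNF184 and HIST1H2BL on chromosome 6, also with none, and in the histone gene cluster at chr6:26056196-26324003, over HIST1H1C, HIST1H2AC, HIST1H4E, HIST1H2AE and HIST1H4H, with scores up to 0.0944. The 1 Mb window of chromosome 6 that holds the 9-site run and the histone run had 21 sites. Of these, 18 were TSA-only and 0 vehicle-only. This TSA-only share, 85.7%, was the highest of about 2150 windows with 10 or more sites, whose median was 25%. The longest vehicle-only runs had 7 sites each and none in a promoter. They were at RASSF6 and the chemokine gene IL8 on chromosome 4, at BMP5 on chromosome 6, and at PDK4 and DYNC1I1 on chromosome 7.

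Genes in long stretches without other starts gathered both classes. KCNT2, a potassium channel gene, was nearest to 22 TSA-only and 24 vehicle-only sites, and GBE1, the glycogen branching enzyme, to 21 and 23. SPRY2, an inhibitor of receptor kinase signalling, was nearest to 21 and 6, and AGA, a lysosomal enzyme, to 20 and 6. PCDH7, a protocadherin, had 19 and 23, CADM2, a cell adhesion molecule, 20 and 21, DMD, the dystrophin gene, 11 and 21, and SORCS1, a sorting receptor, 19 and 21. The gene with the nearest start had a median average of 1.77 log2 CPM for TSA-only, 1.62 for vehicle-only and 3.65 for shared sites.

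Neither the 5 largest rises nor the 5 largest falls at shared sites were in promoters. At vehicle-only sites the highest scores were 0.205 in an intronic site nearest to ESRRG, an orphan nuclear receptor gene, 0.170 near NCRNA00290, 0.169 near NEK10, 0.162 near SEL1L and 0.162 in an intron whose nearest start is that of TAPT1. The GC content of the last 4 was 31.2 to 34.9%. At shared sites the largest fall was on chromosome 18 with DSC3, a desmosomal cadherin, as the nearest gene, from 0.246 in vehicle to 0.0410 under TSA, a 6.43-fold centred fall. It was followed by an intronic site near RBMS3 (0.201 to 0.0411) and sites near DDX10 (0.211 to 0.0455), GABRA6 (exonic, 0.184 to 0.0412) and CNTNAP2 (0.402 to 0.0912). These falls ranged from 4.71-fold to 6.43-fold.

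The chromosomes differed in how many sites were found in both lists. The shared portion was 70.1% on chromosome 19, which is dense in genes, and 38.7% on chromosome X and 39.1% on Y. Sites on X and Y also had lower levels at the same score, with 2.33 log2 CPM per kb at middle scores against 3.50 on autosomes. Without X and Y, 25.4% of sites were TSA-only and 20.9% vehicle-only. The TSA-only share of sites on autosomes ran from 17.5% on chromosome 19 to 30.2% on chromosome 6, and the vehicle-only share from 12.4% on chromosome 19 to 26.6% on chromosome 13.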

How the data were processed

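ATAC-seq of 3 TSA and 3 vehicle cultures of LNCaP cells was analysed from processed values. Per the submitters' notes and the study's methods, reads were aligned by the authors with Bowtie to hg19. They trimmed unmapped reads with cutadapt and aligned them with Bowtie2, kept uniquely mappable reads, removed duplicates with Picard, shifted read starts to the centre of the transposase and called peaks with Fseq on pooled libraries. The sources used here name no tool version. The peak lists deposited hold the top peaks of each condition with an Fseq signal per peak, and the deposited site table holds the merged peaks with the authors' average log2 CPM over all libraries. Both it and the mRNA-seq table also hold the authors' edgeR comparison of TSA with vehicle (fold change, likelihood ratio, p-value and, for sites, q-value), which was not used. The deposited STARR-seq enhancers carry a fold enrichment, the ratio to the input library. No value per library was given, so depth per library and error between replicates are unknown.

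Sites were classed by overlap with the lists, and scores were compared as the log2 ratio of the highest score, centred on its median over shared sites. Starts, exons and introns came from GENCODE release 44 on GRCh37, whose chromosome lengths fit hg19 (0 deposited intervals ran past an end). Of 22336 genes in the mRNA-seq table, 20848 symbols matched 20800 genes with a start, by symbol or RefSeq synonym. Python 3.11.15, numpy 2.4.6, pandas 2.3.3, scipy 1.17.1, pysam 0.24.0 and matplotlib 3.10.9 were used, and the scripts were tested on simulated data. The sites, gene lists, motifs and the rule for named sites and genes (highest scores per class and place, largest rises and falls, longest runs, genes nearest to most sites, list members in list order) were chosen with earlier results of these data known, and the search for recurrent and mitochondrial runs was added after the values were seen. Sequences on chromosome 8 were not printed, and some items are not reported here.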

Additional observations from a re-analysis of the deposited data

How the results depend on the processing

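No paired analysis was possible because the deposited values pool the libraries of each condition, and for the same reason no replicate could be left out. Of 96 alternatives to 35 results, 79 left the value within 1.5 times (counts) or within its 95% interval and 17 moved it. With both lists cut to their 30000 highest peaks, 8476 sites were TSA-only and 8411 vehicle-only. With a difference of 25 score percentiles as the limit, 3333 shared sites were higher and 2571 lower under TSA, so the balance turned from 475 and 776, as it did without centring (658 and 574). In 400 bases around the centre, the share in TSA-only over that in vehicle-only sites was 1.26 for AP-1 (1.46 in 200 bases), 0.727 for forkhead TGTTTAC (0.636) and 0.707 for AGAACA (0.631). The forkhead ratio was 0.471 without sites that hold the LINE-1 run, and the ETS ratio was 2.09 at distal sites (4.1 at all sites). For closed enhancers the ratio was 2.49, 3.37 with the enhancer centre inside the site and 1.97 without sites that hold the run. Median GC content in 200 bases was 53.0% at TSA-only and 56.0% at shared sites. With a start within 10 kb, the nearest gene had a median of 2.29 log2 CPM at TSA-only, 2.85 at vehicle-only and 4.72 at shared sites, so the order of the first 2 classes differed from that over all distances. Within 10 kb of a start, 496 genes had vehicle-only sites alone (235 in promoters). The causes of these shifts were not tested. The alternatives without X and Y, without the run and without mitochondrial runs were chosen after seeing the data. The one without the run drops only sites with that exact run, not all LINE-1 sites. Most single-list sites had scores near the lowest listed score, and the lack of values per library and the unknown scaling of scores limit all comparisons.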
